A study of Phaffia rhodozyma with 29 samples.

Results

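In Xanthophyllomyces dendrorhous, a red yeast that is also called Phaffia rhodozyma, 72 of 6469 genes were at least 2-fold lower when the CYP61 locus was interrupted, and at least 2-fold higher again when SRE1 was deleted as well. Together these genes made up 6.61 to 7.96% of all counts in the wild-type libraries used to choose them. They made up 2.35 to 3.30% in the cyp61- strain and 6.07 to 8.30% in the strain with both changes. In bulk cultures, fewer cells expressing a gene and less RNA per cell cannot be told apart. The genes were chosen by these very values. For every gene the count was divided by the library's total and expressed as counts per 1000000 (CPM), log2(CPM + 1) was averaged over 3 libraries, and a gene was a member if cyp61- lay at least 1 log2 unit below wild type and the double mutant at least 1 above cyp61-. The first condition held for 202 genes (3.12% of all) and the second for 105 (1.62%).

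RNA was sequenced in 6 groups of 3 libraries, all from strain CBS 6938 or mutants made from it, grown in standard culture to late exponential phase. Wild type was sequenced as 2 sets, whose library labels end in N or in Ne; these are wild type (N) and, separately, wild type (Ne). The mutants were sre1- (SRE1 deleted), cyp61- (CYP61 interrupted), the double mutant with both changes, and a tagged strain with a FLAG epitope on Sre1. Of the tagged strains in the design text 1 is also cyp61-, and it is not stated which was used for RNA-seq, nor whether a mutant line is a single clone. The labels of the ChIP-exo libraries name the tagged strains FLAG-SRE1N and cyp61- FLAG-SRE1. The tagged RNA-seq strain may thus differ from wild type by more than the tag. The labels tell the wild-type sets apart by this suffix alone.

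SRE1 encodes a membrane-bound transcription factor of the SREBP family, named for the sterol regulatory elements it binds. When sterols run low, such factors are cut from the membrane, and the freed part moves to the nucleus and switches on genes of sterol synthesis and uptake. CYP61 encodes the C-22 sterol desaturase, a cytochrome P450 late in ergosterol synthesis, and the yeast is known for making the red carotenoid astaxanthin from precursors that sterol synthesis also uses. The files give genes by number and contig, without names, functions or coordinates. No role can therefore be given for any of the 72 genes, and neither SRE1 nor CYP61 could be looked up to check the strains.

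Library totals ran from 9300589 to 20663214 counts. The table headers state paired and trimmed reads for the tagged strain, the double mutant, cyp61- and wild type (N). Those of sre1- and of wild type (Ne) state neither. The groups thus form 2 sets of tables, and across them strain and set cannot be told apart. In wild type (Ne) and in sre1- the library with the letter C stood apart. The median member there was 5.13 and 5.33 on the log2(CPM + 1) scale, against 6.50 and 6.68 in the other wild type (Ne) libraries and 6.13 and 6.48 in the other sre1- libraries. In both groups at once, 60 of the 72 members were lowest in library C, as were 34.7% of all genes. Medians and counts over the members that rest on these groups are therefore also given without the C libraries.

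**Figure D1:**
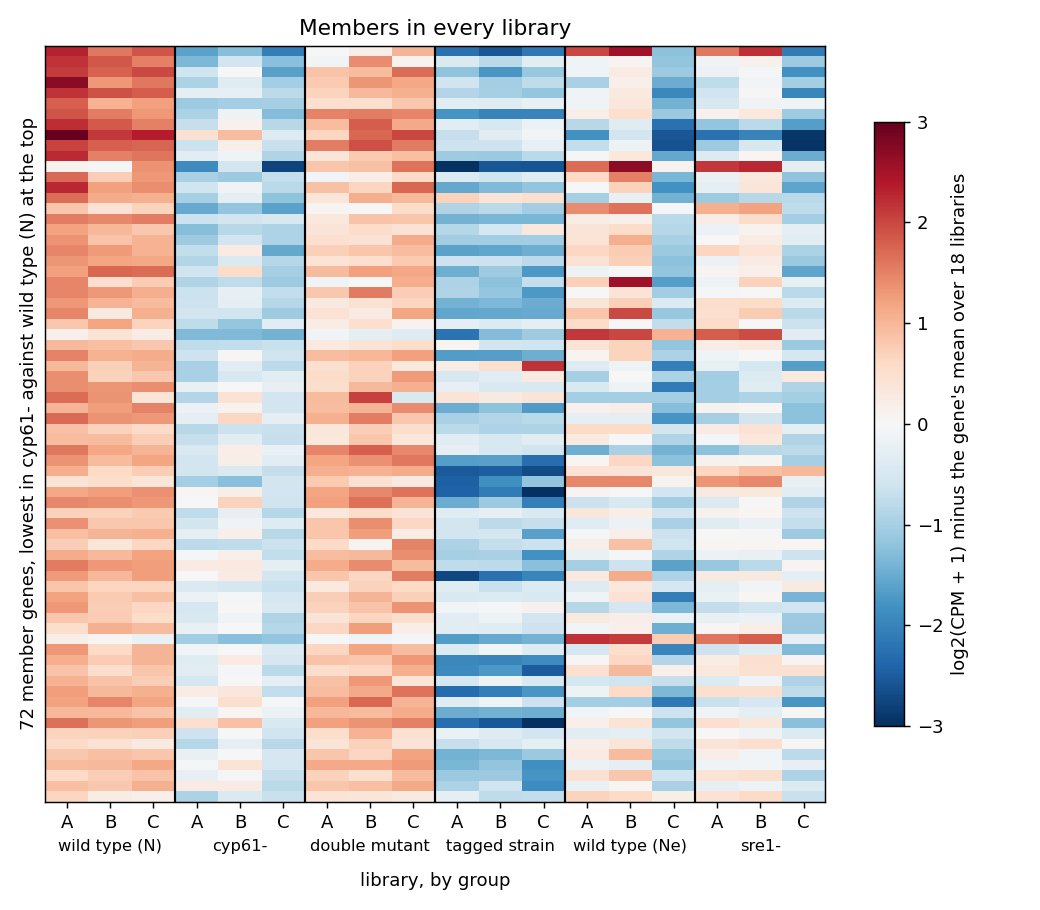
Each row is 1 of the 72 members and each column 1 of the 18 libraries, and colour gives log2(CPM + 1) minus the gene's mean over the 18 libraries, limited to 3 in either direction. Rows are ordered by the difference of cyp61- from wild type (N), which with the double mutant chose the genes; the tagged strain is blue in most rows, and library C is the palest or bluest of wild type (Ne) and of sre1- in most rows.

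The 72 members ranged widely in level. Their mean log2(CPM + 1) ran from 2.17 to 13.92 in wild type (N), and 60 of them averaged at least 10 CPM over the 18 libraries. Abundant genes were frequent among them, with 36 members (50% against 26% of all genes) at a mean of at least 100 CPM and 8 (11.1% against 2.6%) at 1000 CPM or more. Another 12 members averaged under 10 CPM. Since 1 is added to every CPM, a gene with a mean log2(CPM + 1) under 1 in wild type (N) cannot meet the rule. Whether this bears on the share of abundant members was not tested. The 8 most abundant members supplied 76.9 to 83.8% of the counts of the group in each library.

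The most abundant member, g3051 on contig 0, measured 14196, 15665 and 16807 CPM in wild type (N) A, B and C. It measured 7864, 9129 and 5797 CPM in cyp61-, 15145, 13030 and 18039 CPM with both changes, and 4319, 4369 and 2742 CPM in the tagged strain. In the other set of tables it measured 12733, 16424 and 6184 CPM in wild type (Ne) and 12384, 12927 and 4913 CPM in sre1-. Every tagged library lay below every library of the other groups. The next, g6396 on contig 10, measured 13059, 10183 and 12191 CPM in wild type (N), 4573, 4675 and 5010 CPM in cyp61-, and 4053, 4783 and 5010 CPM in the tagged strain. Its double mutant libraries spread from 8320 to 22013 CPM. For g6396 the tagged strain and cyp61- overlapped.

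The differences that chose the members had a median of -1.43 (log2) for cyp61- beside wild type (N) and of 1.24 for the double mutant beside cyp61-. All 3 cyp61- libraries lay below all 3 of wild type (N) in 71 members, where 19.4% of all genes were so placed. All 3 double mutant libraries lay above cyp61- in 70 members, against 11.7% of all genes. The members whose libraries overlapped were g3198 in both comparisons and g672 in the second. These counts follow from the choice and describe the group only.

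The largest difference from wild type (N) was that of g3478 on contig 0, which measured 656, 392 and 490 CPM in wild type (N), 42.5, 53.5 and 30.3 CPM in cyp61-, and 132, 148 and 267 CPM in the double mutant. Its level in the double mutant thus lay between those of the other 2 groups, without overlap. Gene g5352 on contig 2 followed, at 19.5, 15.5 and 11.9 CPM in wild type (N), 0.789, 2.06 and 0.898 CPM in cyp61-, and 3.31, 11.2 and 3.90 CPM in the double mutant. The smallest differences were those of g3044 on contig 0 (-1.02 log2) and g4510 on contig 4 (-1.04 log2).

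The double mutant stood farthest above cyp61- for g2125 on contig 8, by 2.85 log2 units, where the double mutant measured 98.3, 101 and 173 CPM, cyp61- 14.2, 37.0 and 7.13 CPM and wild type (N) 59.5, 53.2 and 142 CPM. The libraries of cyp61- differed by several fold among themselves for this gene, and none reached the double mutant. For g6014 on contig 6, the double mutant measured 608, 633 and 598 CPM, cyp61- 112, 196 and 87.8 CPM and wild type (N) 800, 633 and 537 CPM. The double mutant lay within the range of wild type (N).

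At the edge of the rule, g668 on contig 1 and g2826 on contig 7 were the last genes inside, with the double mutant 1.016 and 1.021 log2 units above cyp61-. Just outside were g669 on contig 1, at 0.995 for the same difference, and g1748 on contig 5, whose cyp61- level lay -0.997 from wild type (N). The number of members depends on the scaling, since the median of all genes differed by 0.13 log2 between cyp61- and wild type (N), being higher in cyp61-, and by -0.20 between the double mutant and cyp61-. With TMM-scaled library sizes, which set those medians to 0, 134 genes met the rule, among them all 72. Without library B of cyp61-, 112 genes met it, 71 of them among the 72.

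The double mutant was close to wild type (N) for most members. The median difference was -0.18 log2 (-0.07 over all genes), and 66 of the 72 members lay within 2-fold. The other 6 were at least 2-fold lower in the double mutant, where 61 of 6469 genes (0.943%) were. No member was at least 2-fold higher, where 16 of all genes (0.247%) were. Genes in general thus lay within 2-fold of wild type (N) more often than the members did. The lowest were g3478, at -1.52, and g5352, at -1.36. Above wild type (N), g2125 was 0.63 and g4195 on contig 9 was 0.30 higher, the latter with double mutant libraries at 151, 190 and 150 CPM and wild type (N) at 166, 122 and 112 CPM, which overlap. Without overlap, 19 members were lower in the double mutant (15% of all genes) and 0 higher (7.5%). These groups were used by the rule, so no test is given.

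In the tagged strain, whose libraries had no part in the choice, the members were low. The tagged strain was the lowest of the 6 groups for 40 members, a count that was not made over all genes. Its libraries were close together, at medians of 4.98, 5.03 and 5.01 log2(CPM + 1), while the median of all genes there was 5.71 to 5.77. Beside wild type (N), 71 of the 72 members were lower, with a median difference of -2.13, and all 3 tagged libraries lay below all 3 of wild type (N) for 70 (22.8% of all genes). At least a 2-fold difference was seen for 66 members, against 7.57% of all genes in that direction. The exception was g5832 on contig 6, with 6.67, 8.24 and 28.6 CPM in the tagged strain and 12, 9.72 and 12.4 CPM in wild type (N). Beside the double mutant 58 members were at least 2-fold lower, against 7.48% of all genes. Wild type (N) and the double mutant had to be high for a gene to be chosen, so these counts are descriptions.

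**Figure D2:**
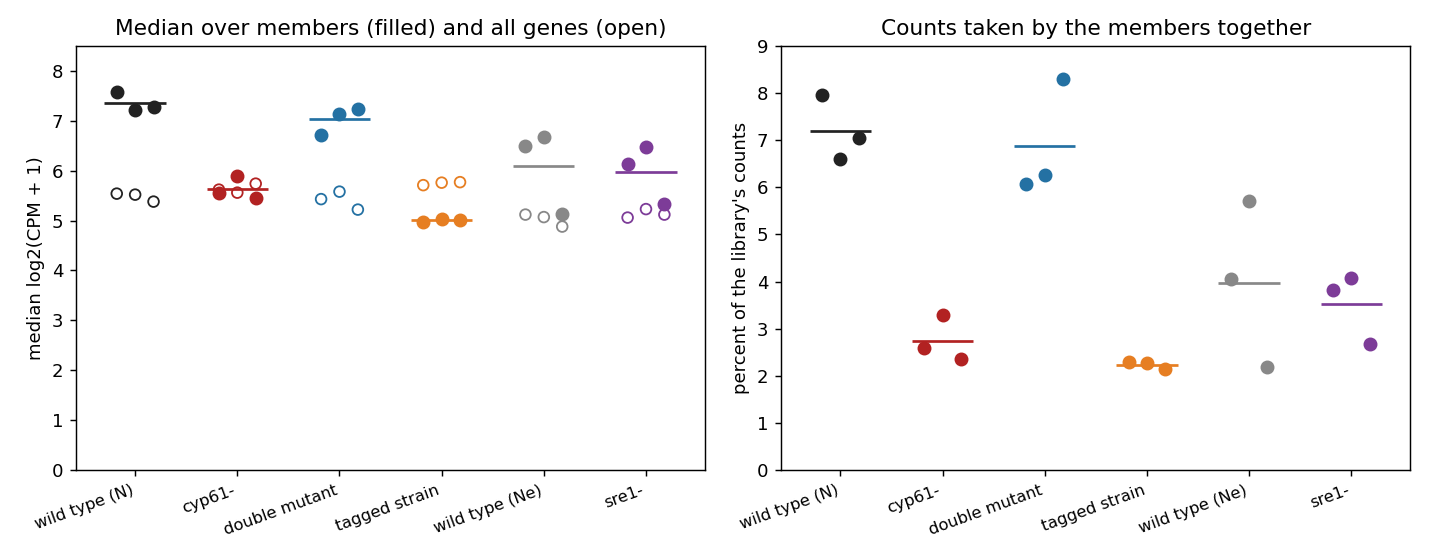
Left, the median log2(CPM + 1) over the 72 members (filled points) and over all genes (open points) in each library, with the group mean of the filled points as a line; right, the percent of each library's counts that fell in the 72 members, with the group mean. Members lie above all genes in wild type (N) and the double mutant, near them in cyp61-, and below them in the tagged strain, at 2.14 to 2.29% of counts.

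Tagged and cyp61- levels were compared as values, since the rule needed low cyp61- levels. The median difference of the tagged strain from cyp61- was -0.45 log2 over members and 0.08 over all genes, with 51 members below and 21 above cyp61-. At least 2-fold lower were 20 members, against 4.27% of all genes, and 2 were at least 2-fold higher, against 3.85%. Without overlap, 30 members were lower (20% of all genes) and 6 higher (30%). The 20 became 13 without library B of cyp61-. The lowest beside cyp61- were g3342 on contig 0 and g722 on contig 1. Gene g3342 measured 15.8, 13.1 and 6.92 CPM in the tagged strain, 115, 150 and 59.1 CPM in cyp61-, and 257, 204 and 195 CPM in wild type (N). Gene g722 measured 17.2, 21.7 and 11 CPM in the tagged strain, 100, 109 and 64.8 CPM in cyp61-, and 216, 231 and 251 CPM in wild type (N). For both genes the 3 groups stood apart in that order.

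The 2 members that stood at least 2-fold above cyp61- were g4987 and g5832, the latter named after its values were seen. Gene g4987 on contig 2 measured 5315, 4323 and 4569 CPM in the tagged strain, 1646, 2652 and 1427 CPM in cyp61-, and 10404, 7044 and 6815 CPM in wild type (N). Its tagged level lay between the other 2, without overlap. Gene g5832 had the largest difference, 1.66 log2, with 2.37, 4.17 and 2.80 CPM in cyp61- below the tagged values given above, of which library C was far the highest. Gene g590 on contig 1, higher by 0.74 log2, also lay between the other groups, with 20.9, 20.4 and 22.6 CPM in the tagged strain, 11.8, 12.5 and 12.7 CPM in cyp61-, and 93.3, 55.3 and 62.7 CPM in wild type (N).

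**Figure D3:**
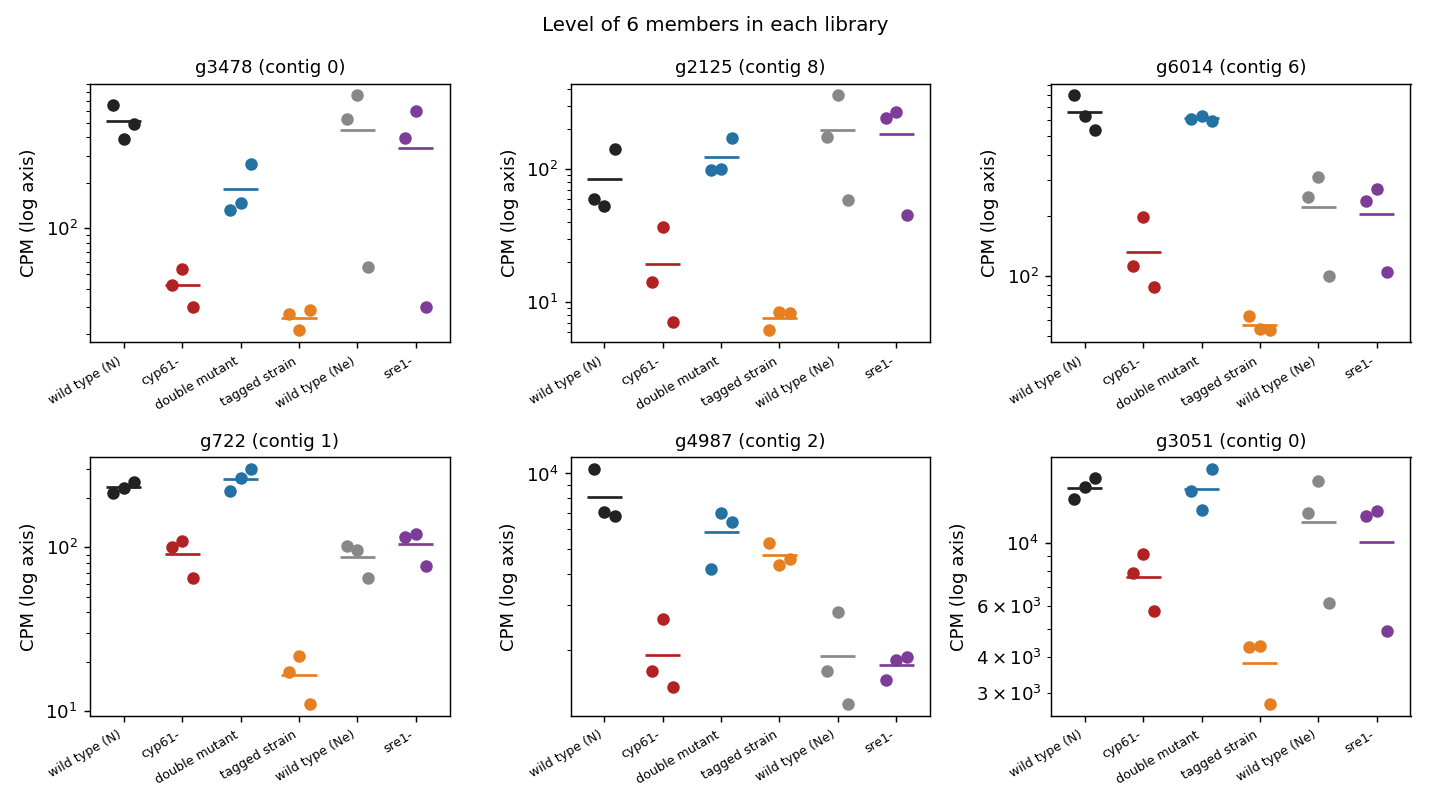
Each panel shows 1 member, with CPM on a log axis, a point per library (A, B and C from left to right) and the group mean as a line. The tagged strain is lowest for g3051, g722 and g6014, lies with cyp61- at the bottom for g3478 and g2125, and stands above cyp61- for g4987; library C is the lowest of wild type (Ne) in all 6 panels.

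Whether SRE1 deletion alone moves these genes was asked with sre1- against wild type (Ne). No library of these groups was used by the rule, and both come from the same set of tables. None of the 71 members tested passed edgeR's quasi-likelihood test at an adjusted p under 0.05 (smallest adjusted p = 1), in either direction. Of all 6162 genes tested, 0.0162% were called lower (g4728, no member) and 0% higher. At an unadjusted p under 0.05 stood 101 genes, 2 of them members, and DESeq2 also called no member. Neither fit held a term for the library letter. Any spread that same-letter libraries shared, as with the low C libraries, thus stayed in the error of the test. The member not tested was g3198, with too few counts.

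The fold changes of the members in sre1- had a median of -0.18 log2, with the middle of the group between -0.35 and 0.04. Over all genes the median was 0.00, with the middle between -0.14 and 0.14. Of the members tested, 49 lay below 0 and 22 above. Without both C libraries the members' median was -0.22. With 1 library left out it ran from -0.46 to 0.15, so its sign depended on single libraries. No member had all sre1- libraries below all wild type (Ne) libraries (0 of 72, against 1.1% of all genes). The 2 members of smallest p were g668, at -0.63 ± 0.26 (SE, edgeR adjusted p = 1), and g1498 on contig 3, at 0.38 ± 0.16 (edgeR adjusted p = 1). Gene g1498 measured 51.7, 61.6 and 66.0 CPM in sre1- and 44.8, 42.9 and 41.9 CPM in wild type (Ne), which do not overlap, although the difference is small. Gene g668 measured 603, 627 and 331 CPM in sre1- and 865, 803 and 614 CPM in wild type (Ne), with overlap.

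This comparison bounds the members less well than other genes. Of the 71 members, 23 (32.4%) had a 95% interval that stayed inside a 2-fold change, against 80.1% of all genes. The interval's half-width had a median of 0.97 log2 for members and 0.52 for all genes. The C libraries moved with this spread: for g3478, wild type (Ne) measured 525, 757 and 55.2 CPM and sre1- 394, 598 and 30 CPM in libraries A, B and C. Without both C libraries, 2 of the members were called lower, g3230 on contig 0 and g1062 on contig 3. Of all genes, 56 (0.907%) were then called lower, and 111 (1.8%) in either direction. Gene g3230 measured 48.5 and 69.3 CPM in sre1- A and B and 85.1 and 162 CPM in wild type (Ne) A and B. For g1062 the values were 56.3 and 102 CPM and 104 and 373 CPM. The part of the C libraries in these values was not tested.

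The tagged strain was tested against wild type (Ne), again without any library of the rule, but across the sets of tables. Of 71 members tested, 49 (69.0%) were called lower by edgeR (adjusted p under 0.05), where 23.2% of all genes were, and 1 was called higher, where 26% were. All 3 tagged libraries lay below all 3 of wild type (Ne), on the unscaled log2(CPM + 1), for 29 members, against 9.89% of all genes. They lay above for 7 members, a count not given here over all genes. The median log2 fold change was -1.51 over members and 0.02 over all genes. On the unscaled log2(CPM + 1) the tagged strain differed from wild type (Ne) by 0.59 for the median gene and by -0.79 for the median member. The edgeR values, scaled by TMM, are thus relative to that shift. Without library C of wild type (Ne), 62 members and 27.3% of all genes were called lower (median member -1.84). Without library C of both groups, the values were 62 members, 26.8% and -1.75. Without any other single library, 40 to 42 members and 16.5 to 20.3% of all genes were called lower, so the calls over all genes moved with those of the members.

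Gene g2125 had the largest change, at -5.28 ± 0.61 log2 (SE, edgeR adjusted p = 0.000561), with 6.13, 8.46 and 8.23 CPM in the tagged strain and 176, 359 and 58.9 CPM in wild type (Ne). Even the low library C was several fold above every tagged library. Gene g3478 followed at -4.69 ± 0.80 (edgeR adjusted p = 0.00231), with 27.0, 21.2 and 28.8 CPM in the tagged strain, all below the 55.2 CPM of wild type (Ne) C. The smallest adjusted p was that of g1498, at 2.79e-05, with 4.84, 5.02 and 4.21 CPM in the tagged strain and a log2 fold change of -3.83 ± 0.17. Its libraries agree closely within each group.

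The member called higher was g3198 on contig 0, a gene of few counts. It had 16, 27 and 34 counts in the tagged libraries and 0 counts in each of the 3 wild type (Ne) libraries. Against a floor of 3 counts over the wild type (Ne) group it was at least 23.1-fold higher, by counting error only. It was also low in cyp61-, with 2, 31 and 7 counts, and varied from 8 to 136 counts in the double mutant. Setting it to its bound left the members' median at -1.51. The member not tested was g4480 on contig 4, with 0, 1 and 5 counts in the tagged strain and 27, 60 and 4 in wild type (Ne).

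Against sre1-, also across the sets, the tagged strain showed 48 of 71 members lower (67.6%, against 22.9% of all genes) and 3 higher (25.8% of all genes), by edgeR at an adjusted p under 0.05. All 3 tagged libraries lay below all 3 of sre1-, on the unscaled log2(CPM + 1), for 35 members, against 10.9% of all genes. They lay above for 7 members, again without the count over all genes. The median was -1.34 log2 over members and 0.03 over all genes. On the unscaled log2(CPM + 1) the difference was 0.51 for the median gene and -0.75 for the median member. This comparison shares the tagged libraries with the one before it, so the values stand side by side and do not add to each other. Gene g2125 was at -5.11 ± 0.62 (edgeR adjusted p = 0.000494), with 243, 268 and 45.2 CPM in sre1-. Gene g3478 was at -4.24 ± 0.86 (edgeR adjusted p = 0.00438), although sre1- C, at 30 CPM, lay just above the highest tagged library. Without library C of sre1-, 58 members and 27.4% of all genes were called lower (median member -1.50), and without library C of both groups 58 members and 26.9% (-1.47). Without any other single library, 38 to 42 members and 17.4 to 20.4% of all genes were called lower.

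The 3 members called higher in the tagged strain than in sre1- were g672, g4987 and g3198. Gene g672 on contig 1 measured 20.2, 26.2 and 30.9 CPM in the tagged strain and 6.2, 7.42 and 3.49 CPM in sre1- (1.65 ± 0.27, edgeR adjusted p = 0.00177). It was far higher in wild type (N), at 366, 147 and 172 CPM. Gene g4987 was at 0.91 ± 0.20 (edgeR adjusted p = 0.00662), with 1525, 1825 and 1868 CPM in sre1-. For g3198, sre1- held 1 count over its 3 libraries against 77 in the tagged strain, a ratio per count of 58.0 (95% exact interval 10.1 to 2321, counting error only).

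**Figure D4:**
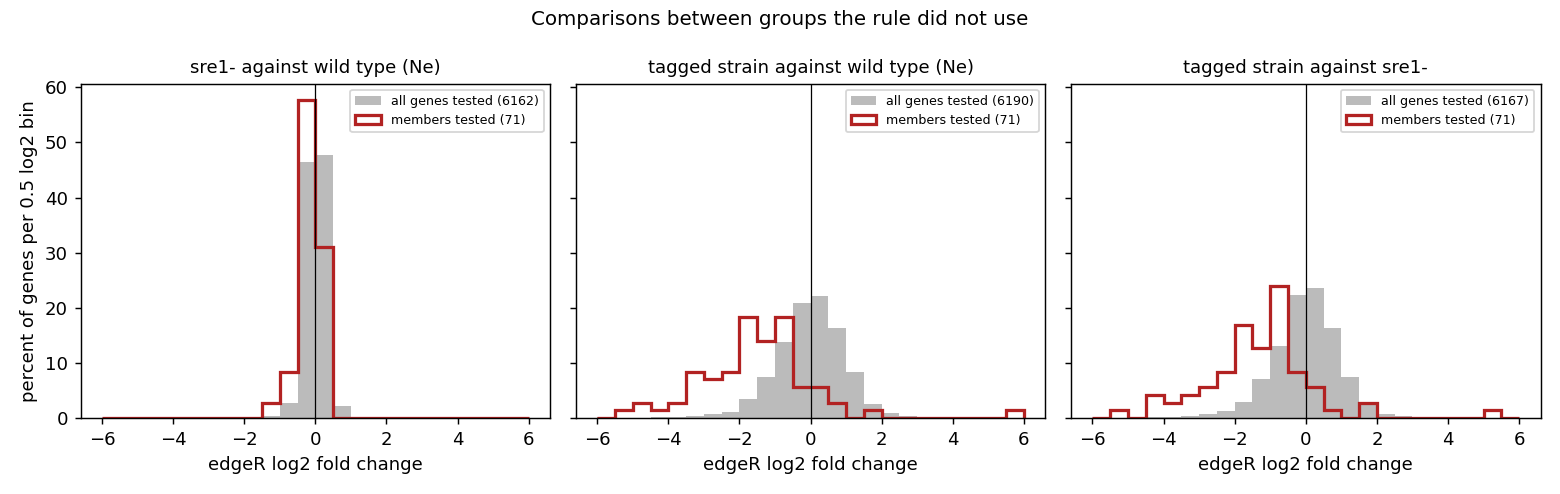
Histograms of edgeR log2 fold changes in the 3 comparisons between groups that the rule did not use, as percent of genes per bin, for all genes tested (grey) and for the 71 members tested in each (red line); values beyond 6 are drawn in the last bin. The members' median is -0.18 in sre1- against wild type (Ne), where that of all genes is 0.00. Members are displaced to lower values in the tagged strain, with medians of -1.51 and -1.34.

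Wild type (Ne) and sre1- themselves lay between the levels that define the members. Beside wild type (N), the median member was -1.32 log2 in wild type (Ne) and -1.36 in sre1-, while the median gene was at -0.39 and -0.30. At least 2-fold lower than wild type (N) were 47 members in wild type (Ne), against 20% of all genes, and 52 in sre1-, against 16.3%. With TMM-scaled sizes the medians were -0.88 and -1.03, and the counts 34 (7.85% of all genes) and 38 (8.18%). Without their C libraries, the medians were -0.96 in wild type (Ne) and -1.09 in sre1- (-0.32 and -0.30 over all genes), and the counts 32 (14.2%) and 40 (14.3%). Without overlap with wild type (N), 54 members were lower in wild type (Ne), where 50.2% of all genes were, and 61 in sre1-, where 46.4% were. Without the C libraries the same counts were 54 (54.5%) and 61 (53.5%). Compared with cyp61-, 43 of the 72 members were higher in wild type (Ne), against 22.4% of all genes, with a median of 0.20 over members and -0.55 over all genes. With TMM-scaled sizes 61 were higher (47.8% of all genes), and without library C 58 were (24.6%), with a median of 0.64. The 2 wild-type sets thus differed from each other for many members, and which part of that comes from the cultures and which from the tables cannot be told apart.

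By the mean of the library medians, the groups stood in the order wild type (N) at 7.35, the double mutant at 7.03, wild type (Ne) at 6.10, sre1- at 5.98, cyp61- at 5.64 and the tagged strain at 5.01 log2(CPM + 1). The SD of the library medians was 0.19 in wild type (N), 0.27 in the double mutant, 0.24 in cyp61- and 0.02 in the tagged strain, but 0.85 in wild type (Ne) and 0.59 in sre1-. Wild type (N) and the double mutant overlapped, while the tagged libraries lay below all others. Wild type (Ne) and sre1- overlapped each other, and they overlapped cyp61- only through their C libraries. Without C their means were 6.59 and 6.31, and libraries A and B of both lay above every cyp61- library. Single members also varied more between libraries of wild type (Ne) and sre1-, with a median range of 1.42 log2 in wild type (Ne) and 0.96 in sre1-, than in the others, at 0.66 in cyp61-, 0.52 in the double mutant, 0.37 in wild type (N) and 0.36 in the tagged strain. Over all genes the median range was 0.49 in wild type (Ne), 0.45 in sre1-, 0.33 in cyp61-, 0.41 in the double mutant, 0.27 in wild type (N) and 0.33 in the tagged strain.

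The members were spread over the genome. They lay on all 11 contigs of more than 100 genes, as 0.57 to 1.76% of the genes of each contig against 1.11% of all genes, and on none of the 11 small contigs, which hold 57 genes in all. Gene numbers rise along each contig in the files, so neighbours by number can be listed, though distances cannot. Only 2 pairs had consecutive numbers, g5352 with g5353 on contig 2 and g4479 with g4480 on contig 4, and 9 pairs of successive members lay within 10 numbers.

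The neighbours g5352 and g5353 differed in level in both wild-type sets and in sre1-. Their means were closer in cyp61- (1.25 and 1.8 CPM), the double mutant (6.13 and 5.02 CPM) and the tagged strain (2.19 and 1.62 CPM). Gene g5353 measured 6.99, 8.48 and 7.31 CPM in wild type (N) and 30, 27.8 and 13.7 CPM in wild type (Ne), whereas g5352 was lower in wild type (Ne), at 3.14, 3.77 and 1.01 CPM. In the tagged strain, g5353 was at 0.538, 1.91 and 2.42 CPM, from 5, 35 and 50 counts. Its log2 fold change from wild type (Ne) was -4.37 ± 0.44 (edgeR adjusted p = 0.000452), against -0.86 ± 0.44 for g5352 (edgeR adjusted p = 0.14). The difference between the neighbours was not tested. Gene g4479 measured 80.5, 63.4 and 60.6 CPM in wild type (N), and g4480 3.72, 3.97 and 3.74 CPM. Another place, chosen after its values were seen, was on contig 1, where g668 and g672 are members and g669 missed the rule narrowly.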

How the data were processed

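The members and lists were chosen with earlier results of these data known. The tables hold, per the file headers, each gene's total read counts as the authors deposited them, unscaled (6469 genes, 22 contigs). Reads were mapped to an assembly of this yeast, per the design text. Tools named in the submitters' processing notes are Bowtie2 2.3.5.1 and SAMtools, DESeq2 and edgeR, and MACS2, deepTools and bedtools, none with a role. How reads were counted, by which gene models and whether by strand, are points not given in the sources used here; overlapping, antisense or near-identical genes may share counts. The columns of the wild type (Ne) table lack the suffix of the labels. They were assigned to the group through the table that the labels name, and their letters serve as names only. The ChIP-exo peak lists were not used here, since no gene coordinates were at hand, and pathway lists could not be run without gene names.

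Members follow the rule on CPM by column sums. Counts were tested with edgeR 4.0.16 (R 4.3.3, limma 3.58.1; filterByExpr, TMM, quasi-likelihood test, Benjamini-Hochberg over all genes tested), each fit holding the libraries of its own 2 groups, because the groups differ in spread. SE is the fold change over the square root of its F statistic. The steps were tested on simulated data. Alternatives were DESeq2 1.42.0, other scaling, no filter, all 18 libraries in 1 fit, the replicate block and libraries left out. No library repeats another of its group, with a mean chi-square per gene of 17 to 320 between them, beyond sampling noise. p-values measure the spread between the 3 biological replicates per strain of the design text. Named genes are at most 2 identifiers per direction and statement, by largest difference, level, smallest p or place at the rule's edge; in the tests, called members of at least 10 CPM whose groups do not overlap. Genes behind counts of 5 or fewer are also named, after their values were seen.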

Additional observations from a re-analysis of the deposited data

How the results depend on the processing

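The number of members was 134 with TMM-scaled sizes and 142 with DESeq2 size factors, in place of 72, and 51 to 112 with 1 library left out. It was 76 and 56 with pseudocounts of 0.5 and 5 CPM, and 62 at a minimum mean of 10 CPM. In sre1- against wild type (Ne), the 1 gene called became 14 with DESeq2, 14 with all 18 libraries in 1 fit, 111 without both C libraries and 0 to 6 with 1 library left out. Members called lower there were 2 without both C libraries, where 0.907% of all genes were, and 0 under the other alternatives. The members' median turned from -0.18 to 0.15 without wild type (Ne) B and to 0.02 without sre1- C, so its sign depended on single libraries. In the tagged strain against wild type (Ne), members called higher were 2 with DESeq2, 2 with all 18 libraries in 1 fit and 1 to 3 with 1 library left out. With 1 library left out, members called lower ranged from 40 to 62 while 1025 to 1691 of all genes were called lower. Against sre1- they ranged from 38 to 58 while 1076 to 1695 of all genes were. Wild type (Ne) and sre1- beside wild type (N) and cyp61- were also described without their C libraries and with TMM-scaled sizes, choices made after seeing the data. Members at least 2-fold lower in the tagged strain than in cyp61- were 13 to 25 with 1 library left out. Where a count moved, the cause was not tested. With the replicate block, the tagged strain against sre1- gave 1353 genes called lower in place of 1413, and 46 members lower in place of 48. Calls in either direction were 2865 in place of 3005. Same-letter libraries of the tagged strain and sre1- had deviations correlated at 0.08, -0.15 and 0.08, and those of different letters at -0.13 to 0.14. No deviation shared by letter was thus seen, but such values cannot tell whether same-letter cultures were handled together. For sre1- and wild type (Ne) these correlations were not computed. Library C was the lowest in both for 60 of the 72 members, against 34.7% of all genes. The block was not run with wild type (Ne), whose columns are assigned to the group only. Depth limits members of few counts, such as g3198 and g4480.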
